A study of Mus musculus with 2 samples.

Results

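The genes described here are the 30 that carry MHC class I antigen presentation from the proteasome to the loaded heavy chain. They were taken by symbol from the 32285 genes of the count tables. They are 9 class I heavy chains (H2-K1, H2-D1, H2-Q4, H2-Q6, H2-Q7, H2-T22, H2-T23, H2-T24 and H2-M3), the light chain B2m, the transactivator Nlrc5, the peptide transporter (Tap1 and Tap2), the editors Tapbp and Tapbpl, 6 catalytic proteasome subunits (Psmb5 to Psmb10), 3 proteasome activators (Psme1, Psme2 and Psme3), the trimming peptidase Erap1, and 5 endoplasmic reticulum chaperones and disulfide isomerases (Calr, Canx, Pdia3, Pdia6 and Hspa5). All 30 had UMIs, single RNA molecules tagged at reverse transcription, in both libraries.

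The study sequenced single CD45+ cells, the leukocytes of digested mouse tumours, on a 10x Genomics instrument. There were 2 libraries, 1 labelled WT and 1 labelled Ythdf2 KO, both from C57BL/6 mice. Ythdf2 encodes a protein that binds methylated adenosines in mRNA and promotes decay of the marked transcript. The sample labels speak of a knockout tumour, whereas the series' own design text speaks of conditional knockout mice. The cell type that lost the gene is therefore not settled by the sources used here, and neither a Cre driver, nor the tumour line, nor the age and number of the animals is given. Ythdf2 itself stood at 48.4 CPM (its UMIs divided by all UMIs of the cells and scaled to 1000000) in the kept cells of the WT library and 46.3 CPM in those of the Ythdf2 KO library. The loss of the gene is thus not visible in its UMI count pooled over all kept cells of a library. A loss in only some cell types could go unseen in that pool, and UMIs from the 5′ end need not cover a deleted part.

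Each genotype was a single library, so no difference between genotypes has a replicate check and no p-value is given. The intervals printed after values are exact 95% intervals that cover counting error only. After filters, 18782 WT and 14576 Ythdf2 KO cells were kept, and 10910 (58.1%) and 8393 (57.6%) of them fell into 1 of 16 gates set on marker UMIs. A name such as C1q macrophages stands below for the cells that passed that gate. Of the gates, 10 held at least 50 cells in each library and are called the 10 cell types. Markers that were not used in the gates were highest in their own type in most cases, the exceptions being CD8 T cells (3 of 5 markers in WT, 4 of 5 in Ythdf2 KO), classical monocytes (2 of 3 in both) and patrolling monocytes (2 of 3 in WT). The libraries shared 101 barcode sequences, and without those barcodes 8 members in place of 10 were lower in the macrophage comparison given further on. The members took 1.55% of the kept UMIs in WT and 1.47% in Ythdf2 KO, from H2-T24 with 2024 and 1543 UMIs to B2m with 595237 and 433490.

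As background, proteasomes cut cytosolic proteins into peptides, the TAP transporter carries these into the endoplasmic reticulum, and editors and chaperones fit them into a heavy chain bound to B2m, which then travels to the cell surface. CD8 T cells read the classical molecules (encoded by H2-K1 and H2-D1 in C57BL/6 mice), while NK cells sense both the classical molecules and the non-classical Qa-1 (H2-T23). Interferon gamma and Nlrc5 raise many of these genes together, including the immunoproteasome subunits that replace their constitutive counterparts. In tumours, dendritic cells and macrophages use the same machinery to show tumour peptides to CD8 T cells.

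The start regions of some members show the letters through which the pathway is known to be switched on. They are printed to show which members share such letters, and no link to the measured levels was tested. RefSeq promoters (GRCm38.p6, the patch release of mm10) were found for 25 of the 30 members, and the 250 bases before each start were searched on both strands. The perfect NF-kappaB palindrome, the capitals of the first windows printed, was in 10 of 32851 promoters (0.0304%), and 4 of those belonged to members, 2 overlapping ones to H2-K1 and 1 each to H2-D1 and H2-Q6. Their windows are given on each gene's own strand with the palindrome in capitals, H2-K1 from chr17:34000364-34000478 (minus strand), H2-Q6 from chr17:35424657-35424771 (plus) and H2-D1 from chr17:35262914-35262943 (plus).
H2-K1: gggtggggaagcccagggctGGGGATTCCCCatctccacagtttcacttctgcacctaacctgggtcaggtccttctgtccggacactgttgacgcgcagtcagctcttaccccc
H2-Q6: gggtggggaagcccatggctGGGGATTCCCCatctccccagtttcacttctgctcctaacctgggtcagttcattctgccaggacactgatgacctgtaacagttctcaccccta
H2-D1: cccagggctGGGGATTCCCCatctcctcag
The windows of H2-K1 and H2-Q6 had the same letter at 91 of 115 positions. The letters TGACGC, a strict form of part of the element that Nlrc5 complexes use, were in 6.12% of promoters. They were in those of 6 members (H2-D1, H2-K1, H2-M3, Pdia3, Psme2 and Psme3). Near matches with another last letter were not counted, such as tgacgt in H2-Q7 and tgacga in B2m and Tap1. A promoter without TGACGC may thus still hold the element, and a promoter with these letters need not hold all of it.

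The interferon response core, GAAA, any 2 bases and GAAA again, was in 2.98% of promoters and in those of B2m, H2-T22 and H2-T23. The pattern is strict, and near matches were not counted, such as tttcacttc in the windows of H2-K1 and H2-Q6 above. A promoter without the pattern may thus still hold an interferon response element. The capitals below mark it, and it lies on the opposite strand in H2-T22 and H2-T23. The windows are chr2:122147528-122147587 (plus) for B2m, chr17:36042894-36042953 (minus) for H2-T22 and chr17:36032806-36032835 (minus) for H2-T23.
B2m: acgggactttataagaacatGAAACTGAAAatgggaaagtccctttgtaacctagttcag
H2-T22: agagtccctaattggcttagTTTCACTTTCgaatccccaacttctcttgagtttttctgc
H2-T23: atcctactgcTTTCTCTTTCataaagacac
The interferon gamma site TTCNNNGAA was in 7.02% of promoters and in those of H2-M3 and Psmb8.

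The endoplasmic reticulum stress element, CCAAT, any 9 bases and CCACG, through which unfolded proteins are known to raise chaperone genes, was in 37 promoters (0.113%), and 4 of them belonged to members, all of them chaperones or isomerases. The plain CCAAT box that it contains was in 33.8% of promoters and in those of 18 members. The windows are chr2:34772020-34772049 (plus) for Hspa5, chr8:84847054-84847113 (minus) for Calr, chr11:50325779-50325838 (minus) for Canx and chr12:17266471-17266530 (plus) for Pdia6, with the element in capitals, reversed in Calr.
Hspa5: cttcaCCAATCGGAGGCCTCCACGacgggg
Calr: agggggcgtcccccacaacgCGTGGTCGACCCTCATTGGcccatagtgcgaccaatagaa
Canx: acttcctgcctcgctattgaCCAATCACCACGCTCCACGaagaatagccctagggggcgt
Pdia6: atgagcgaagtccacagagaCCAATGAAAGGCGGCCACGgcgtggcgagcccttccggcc
These matches describe letters and not binding. By position, 14 of the 30 members lie on chromosome 17, and Tap1 and Psmb9 start there head to head, with 225 bases between their RefSeq starts.

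Mature dendritic cells, the migratory Ccr7-expressing state, carried the most class I RNA, and neutrophils and B cells the least. Summed over the members, mature dendritic cells held 25169 CPM in WT and 25359 CPM in Ythdf2 KO, against 7150 and 8667 CPM in neutrophils and 8278 CPM in Ythdf2 KO B cells, the lowest of that library. Of the 30 members, 15 were highest in mature dendritic cells in both libraries and 19 were lowest in neutrophils in both. The highest type was the same in both libraries for 25 of 30 members and the lowest type for 27 of 30. At an equal depth of 1000 UMIs per cell the median cell held 26 and 25 member UMIs among mature dendritic cells (WT and Ythdf2 KO), 20 and 17 among C1q macrophages, 14 and 13 among classical monocytes, 12 and 13 among NK cells, and 6 and 8 among neutrophils. Cells below that depth were left out, at most 24 of any of these types in a library. CPM is a share of a cell's RNA, so a lower level and a rise in other transcripts cannot be told apart.

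**Figure D1:**
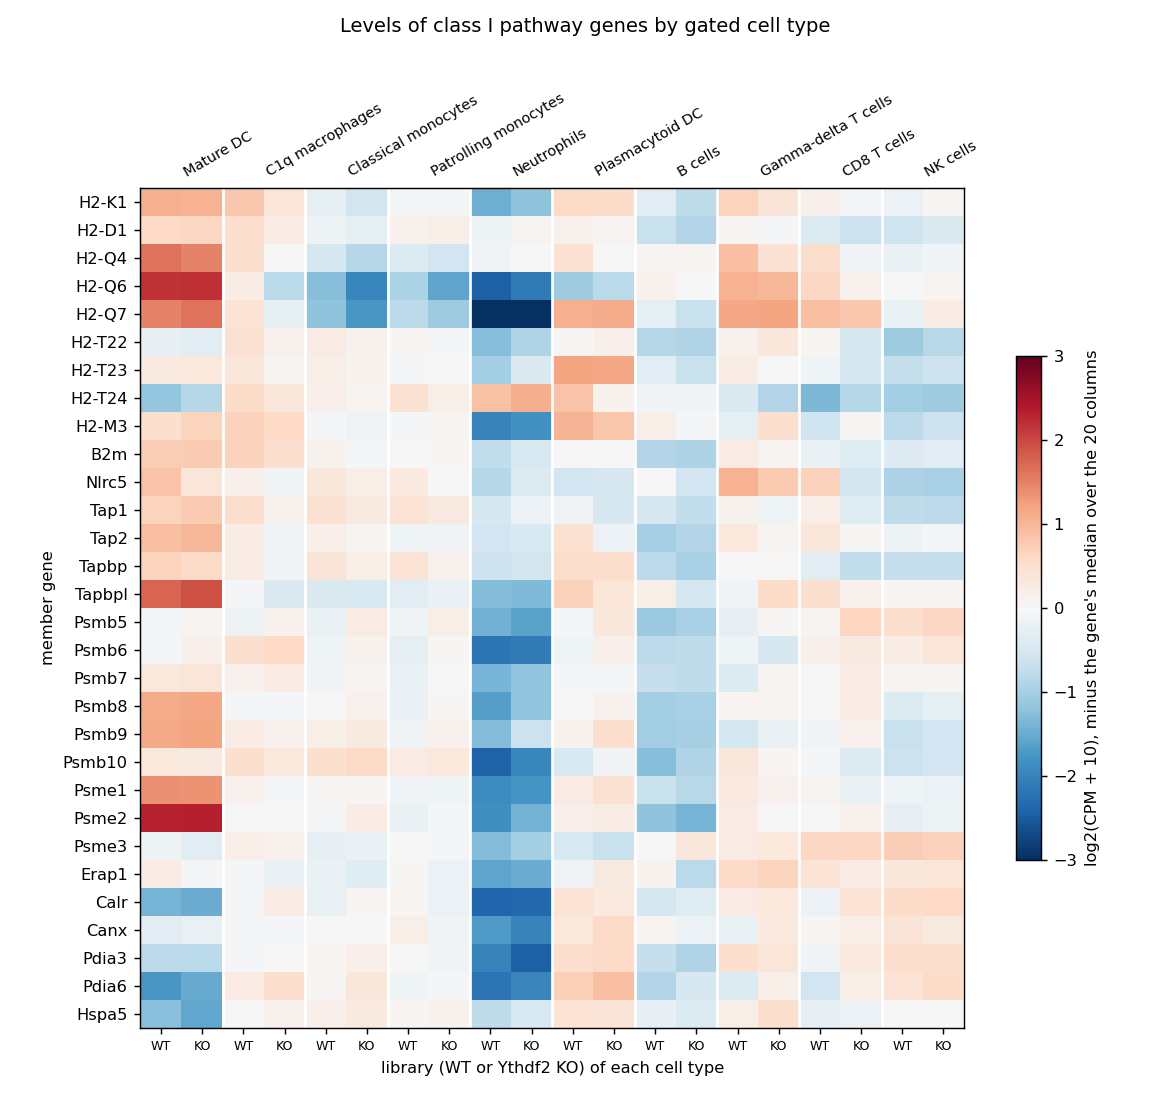
Levels of the 30 members (rows) in the 10 cell types (columns, WT and Ythdf2 KO side by side), as log2(CPM + 10) minus the gene's median over the 20 columns. Red is above the gene's own median and blue below, so that colours compare cell types within a gene and not genes with each other. Mature dendritic cells are red for most heavy chains, editors, immunoproteasome subunits and activators but blue for Calr, Pdia6 and Hspa5, and neutrophils are blue in most rows, with H2-T24 red and H2-D1 and H2-Q4 near white.

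Among the classical heavy chains, H2-K1 ranged from 667 CPM (WT) and 798 CPM (Ythdf2 KO) in neutrophils to 3906 and 3812 CPM in mature dendritic cells. C1q macrophages came next in WT (3255 CPM), but in Ythdf2 KO (2384 CPM) they stood below plasmacytoid dendritic cells (2754 and 2713 CPM) and gamma-delta T cells (2943 and 2451 CPM). Classical monocytes (1525 and 1255 CPM) and NK cells (1638 and 1890 CPM) lay lower. H2-D1 had a narrower range, from 1277 and 1103 CPM in B cells to 3120 and 3138 CPM in mature dendritic cells. Neutrophils set the pair apart: H2-D1 stood there at 1837 and 2161 CPM, above the 1340 and 1508 CPM of NK cells, while H2-K1 was at its lowest.

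The share of H2-K1 in the UMIs of the pair was therefore 26.6% (25 to 28.4) in WT neutrophils and 27.0% (25.7 to 28.3) in Ythdf2 KO neutrophils. It was 45.5% and 42.4% in classical monocytes, 52.9% and 49.5% in C1q macrophages, 55.6% and 54.9% in mature dendritic cells, and 57.5% and 57.9% in CD8 T cells. The neutrophil share lay outside the counting interval of each of the other 9 types in both libraries. A share of UMIs compares cell types and is not a measure of the proteins' relative amounts.

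Among the non-classical chains, H2-Q6, H2-Q7 and H2-M3 had wider spans across the types than H2-K1 and H2-D1 in both libraries, and H2-T22 and H2-T23 narrower ones than H2-K1. H2-Q7, which encodes Qa-2, went from 35.7 and 41.0 CPM in neutrophils to 1183 and 1302 CPM in mature dendritic cells, and it was also high in gamma-delta T cells (933 and 959 CPM) and plasmacytoid dendritic cells (879 and 913 CPM). H2-Q6, its neighbour, went from 21.6 and 29.7 CPM in neutrophils to 766 and 774 CPM in mature dendritic cells, a 35.4-fold span in WT, but stood at only 71.4 and 87.3 CPM in plasmacytoid dendritic cells. H2-Q4 was highest in mature dendritic cells (257 and 234 CPM) and lowest in classical monocytes (49.8 and 38.1 CPM).

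H2-T23, whose product Qa-1 shows leader peptides of classical chains to the CD94 and NKG2 receptors of NK cells, was highest in plasmacytoid dendritic cells at 921 and 899 CPM. H2-M3, which presents formylated peptides, was also highest there at 133 and 115 CPM and stood at 7.5 and 10 CPM in neutrophils. H2-T22, a chain recognised directly by some gamma-delta T cell receptors, was highest in C1q macrophages in WT (291 CPM) and in gamma-delta T cells in Ythdf2 KO (268 CPM). H2-T24 ran against the rest, with its highest level in neutrophils (36.7 and 44.2 CPM), 2.57 and 2.17 CPM in NK cells, and no UMI in the 82 WT CD8 T cells, which allows a level of up to 4.93 CPM.

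Some of these counts are uncertain because the genes share sequence. In the GENCODE transcripts, 16.4% of the 100-base windows of H2-Q7 also occur in another gene (11.7% in H2-Q6), as do 14.2% of those of H2-T22 (9.81% in H2-T10), 10.8% of H2-Q6, 7.28% of H2-T23, 4.64% of H2-D1 and 2.66% of H2-Q4. None of the windows of H2-K1, H2-T24, H2-M3 or B2m do. The sum of H2-Q6 and H2-Q7 is free of the overlap within that pair, and its share among the UMIs of both with H2-K1 and H2-D1 was 2.24% and 2.33% in neutrophils, 6.53% and 4.85% in classical monocytes, 10.7% and 8.23% in C1q macrophages, 14.8% and 16.1% in NK cells, 21.7% and 23% in mature dendritic cells, and 22.3% and 22.6% in CD8 T cells.

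B2m, the light chain shared by the heavy chains, went from 2147 and 2066 CPM in B cells to 6533 and 6642 CPM in mature dendritic cells, with C1q macrophages (6312 and 5489 CPM) close behind. Nlrc5, the transactivator, was a low transcript with another order: highest in gamma-delta T cells (90.4 and 73.5 CPM) and lowest in NK cells (15.3 and 14.8 CPM). Mature dendritic cells (77.2 and 51.7 CPM) and WT CD8 T cells (67.4 CPM) came after gamma-delta T cells.

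Tap1, a subunit of the peptide pump, was highest in mature dendritic cells (283 and 300 CPM) and lowest in NK cells (99.2 and 96.9 CPM). Tap2, its partner, was highest in the same cells (131 and 141 CPM) and lowest in B cells (27.8 and 31.2 CPM). Tapbp, which encodes tapasin and ties the pump to the waiting heavy chain, went from 177 and 154 CPM in B cells to 501 and 463 CPM in mature dendritic cells. Tapbpl, a tapasin relative that edits peptides outside the pump complex, was the editor with the widest range, from 11.3 and 10.7 CPM in neutrophils to 165 and 185 CPM in mature dendritic cells. No other of the 10 types exceeded 75 CPM for Tapbpl.

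The catalytic proteasome subunits come in pairs, in which Psmb8, Psmb9 and Psmb10 of the immunoproteasome replace Psmb5, Psmb6 and Psmb7. Psmb8 was highest in mature dendritic cells (1551 and 1606 CPM) and lowest in neutrophils (220 and 309 CPM). Psmb9 was also highest of the 10 types in mature dendritic cells (631 and 650 CPM). It was lowest in neutrophils in WT (109 CPM) and in B cells in Ythdf2 KO (137 CPM). Psmb10 was instead highest in classical monocytes (350 and 371 CPM), with mature dendritic cells at 313 and 298 CPM.

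Each constitutive subunit was lowest in neutrophils, and their highest types differed. Psmb5 was highest in NK cells in WT (193 CPM) and in CD8 T cells in Ythdf2 KO (213 CPM), against 42.3 and 37.2 CPM in neutrophils. Psmb6 was highest in C1q macrophages at 248 and 269 CPM, and Psmb7 lay between 36.7 CPM in WT neutrophils and 147 CPM in Ythdf2 KO mature dendritic cells.

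Of the UMIs of all 6 subunits, the immunoproteasome took 85.0% and 84.1% in mature dendritic cells, the highest share in both libraries, and 62.4% (61.8 to 63.0) and 62.9% (62.1 to 63.7) in NK cells, the lowest. Classical monocytes had 78.5% and 76.2%, C1q macrophages 73.3% and 70.5%, and CD8 T cells 72.7% and 70.3%. Neutrophils, low in most subunits, had 77.1% (73.2 to 80.7) in WT and 82.6% (80.1 to 84.8) in Ythdf2 KO. Within the pairs, the share of Psmb9 in the sum with Psmb6 was 78.7% and 77% in mature dendritic cells and 45.9% and 45.2% in NK cells.

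**Figure D2:**
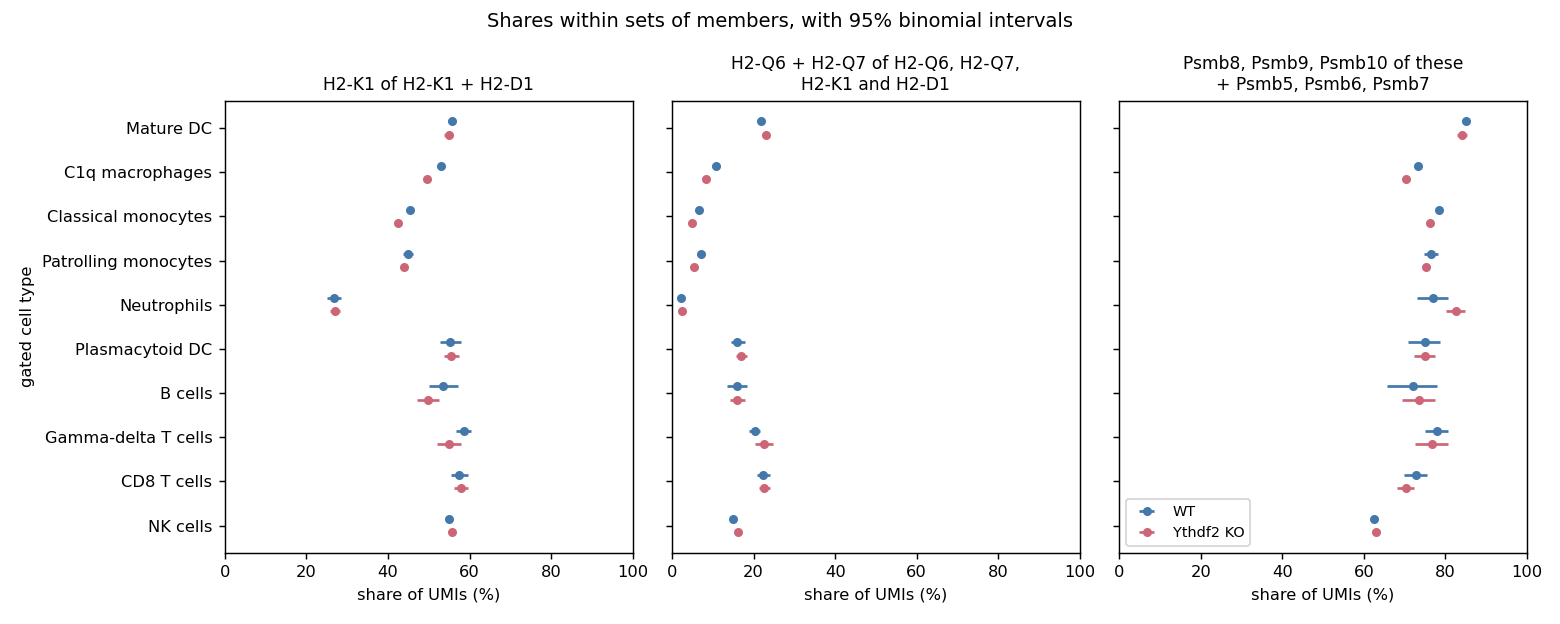
Shares of UMIs in percent within 3 sets of members, 1 panel each, by cell type, with WT in blue, Ythdf2 KO in red and exact 95% intervals that cover counting error only. Neutrophils have the lowest share of H2-K1 over H2-K1 and H2-D1 (26.6% and 27.0%), and mature dendritic cells and NK cells hold the ends of the immunoproteasome share (85% and 62.4% in WT).

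The proteasome activator genes Psme1 and Psme2, whose products form the PA28 cap, were far higher in mature dendritic cells than in the other types. Psme1 stood at 1793 and 1770 CPM there and at most 953 CPM in any other of the 10 types. Psme2 stood at 1922 and 1961 CPM against at most 457 CPM elsewhere, and at 98.7 and 136 CPM in neutrophils. Psme3, which encodes the nuclear cap PA28 gamma, had no such pattern and was highest in NK cells (57.4 and 55.1 CPM). Erap1, which trims peptides inside the endoplasmic reticulum, was highest in gamma-delta T cells (46.9 and 51.5 CPM) and lowest in neutrophils (2.82 and 3.79 CPM).

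The chaperones ran in another order, with mature dendritic cells low and plasmacytoid dendritic cells and NK cells high. Calr, which encodes the calreticulin of the loading complex, stood at 179 and 167 CPM in mature dendritic cells and 723 and 744 CPM in NK cells. Hspa5, the general chaperone BiP, was lowest of all types in mature dendritic cells at 343 and 276 CPM, below neutrophils (492 and 610 CPM). Pdia6, a disulfide isomerase, was at 30.0 and 36.8 CPM in mature dendritic cells and 208 and 239 CPM in plasmacytoid dendritic cells.

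Pdia3, the isomerase bound to tapasin, was at 122 and 121 CPM in mature dendritic cells and 321 and 320 CPM in NK cells. Canx, the membrane chaperone that meets new heavy chains first, varied less outside neutrophils (39.5 and 29.7 CPM), between 116 CPM in WT mature dendritic cells and 227 CPM in Ythdf2 KO plasmacytoid dendritic cells.

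The comparison the design implies is Ythdf2 KO against WT within each cell type. A gene was called higher or lower when its CPM was at least 25% above or 20% below that in WT and the counting interval of the ratio (Ythdf2 KO over WT) was clear of 1. Only genes with at least 50 UMIs over both libraries in that type were measured. Between the libraries the calls on members differed in direction between cell types. Of 30 members, 10 were lower in C1q macrophages, where 10.9% of all measured genes were. Of 26 measured in neutrophils, 7 were higher, where 9.65% of all measured genes were. CD8 T cells had calls both ways, and the other 7 types had 1 to 5 calls each. The share over all genes is given with each type below as its background. In these other 7 types the member counts lay near or below that share. Whether a ratio differs between cell types was not tested.

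In C1q macrophages, 10 of 30 members were called lower and 0 higher in Ythdf2 KO, where 10.9% of the 10928 measured genes were called lower and 4.49% higher. The median log2 ratio was -0.18 over the members and -0.06 over all measured genes. The calls fell on 6 of the 10 heavy and light chain genes (median -0.33) and on all 4 genes of transport and editing (median -0.38). The 6 proteasome subunits, 3 activators and 5 chaperones had 0 calls at this threshold.

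H2-K1 in macrophages stood at 3255 CPM in WT and 2384 CPM in Ythdf2 KO, a ratio of 0.733 (0.723 to 0.742). H2-D1, its classical partner, stood at 2893 and 2434 CPM, a ratio of 0.841 (0.831 to 0.852) that did not reach the threshold. B2m had 6312 and 5489 CPM, a ratio of 0.870 (0.862 to 0.877), also short of it. The share of H2-K1 over the pair accordingly went from 52.9% (52.7 to 53.2) to 49.5% (49.1 to 49.8), with intervals that did not overlap.

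The 3 H2-Q chains had the lowest ratios. H2-Q6 stood at 189 CPM in WT and 88.6 CPM in Ythdf2 KO, a ratio of 0.469 (0.440 to 0.498), and H2-Q7 at 548 and 344 CPM, a ratio of 0.627 (0.606 to 0.647). H2-Q4 had 112 and 75.6 CPM, a ratio of 0.676 (0.630 to 0.725). H2-T22 (0.797, 0.765 to 0.830) and H2-T24 (0.798, 0.696 to 0.913) were closer to 1, and H2-T23 (0.825) and H2-M3 (0.929) were not called.

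The 4 genes that bring peptides to the chains were all lower. Tap1 stood at 254 and 190 CPM, a ratio of 0.747 (0.714 to 0.782), and Tap2 at 77.9 and 62.1 CPM, a ratio of 0.797 (0.735 to 0.863). Tapbp stood at 363 and 285 CPM, a ratio of 0.786 (0.757 to 0.815), and Tapbpl at 41.3 and 28.6 CPM, a ratio of 0.693 (0.617 to 0.777). Among the proteasome members, which were not called, Psmb8 had a ratio of 1.02, Psmb9 0.947, Psme2 1.00 and Psmb10 0.895. Psmb5 (1.23, 1.16 to 1.30), Calr (1.22) and Pdia6 (1.22, 1.16 to 1.28) lay above 1 but below the threshold.

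Other values moved with these ratios. The macrophages differed in held-out macrophage markers, since Apoe stood at 3831 CPM in WT and 1617 CPM in Ythdf2 KO, Mertk at 30.9 and 22.6 CPM, Mrc1 at 152 and 216 CPM and Adgre1 at 138 and 153 CPM. The scaling also matters, because the split of called genes in these cells was 29.3% higher with CPM and 48.8% higher when scaled by the median ratio of measured genes. With that scaling 6 members were lower (H2-K1, H2-Q4, H2-Q6, H2-Q7, Tap1 and Tapbpl) and 3 higher (Psmb5, Calr and Pdia6). Held-out classical monocyte markers also summed to 5916 CPM in the WT and 6364 CPM in the Ythdf2 KO macrophages. These are 43.5% and 47.4% of the sums in classical monocytes. The part of the markers or of the scaling in the ratios was not tested.

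Classical monocytes, the circulating precursors of many tumour macrophages, had the 3 H2-Q chains lower as well. There, 3 of 30 members were called lower and 2 higher, against 8.04% and 5.21% of 10108 measured genes. Both counts lie near these shares, so they do not set the members apart from other genes. H2-Q6 stood at 60.9 and 34.1 CPM, a ratio of 0.560 (0.504 to 0.621). H2-Q7 stood at 173 and 117 CPM, a ratio of 0.672 (0.634 to 0.712), and H2-Q4 at 49.8 and 38.1 CPM, a ratio of 0.765 (0.689 to 0.849).

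H2-K1 in monocytes had a ratio of 0.823 (0.808 to 0.838), H2-D1 0.931 and Tap1 0.883, none of them called. Psmb5 was higher, at 114 and 160 CPM with a ratio of 1.40 (1.32 to 1.48), and so was Pdia6, at 126 and 159 CPM with a ratio of 1.26 (1.19 to 1.34). Apoe differed here too, at 1405 and 409 CPM, and the part of macrophage-like cells among these monocytes in the ratios was not tested. In patrolling monocytes, which had 169 WT and 642 Ythdf2 KO cells, 1 of 30 members was lower (background 7.28%), again H2-Q6, at 78.5 and 47.6 CPM with a ratio of 0.607 (0.487 to 0.760), and 1 was higher (background 3.64%), Psmb6, at 142 and 178 CPM with a ratio interval of 1.08 to 1.46. Neither count exceeded its background share. H2-K1 had a ratio of 0.999 there. Held-out C1q macrophage markers summed to 1628 CPM in the WT and 769 CPM in the Ythdf2 KO patrolling monocytes, and their part in the ratios was not tested.

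**Figure D3:**
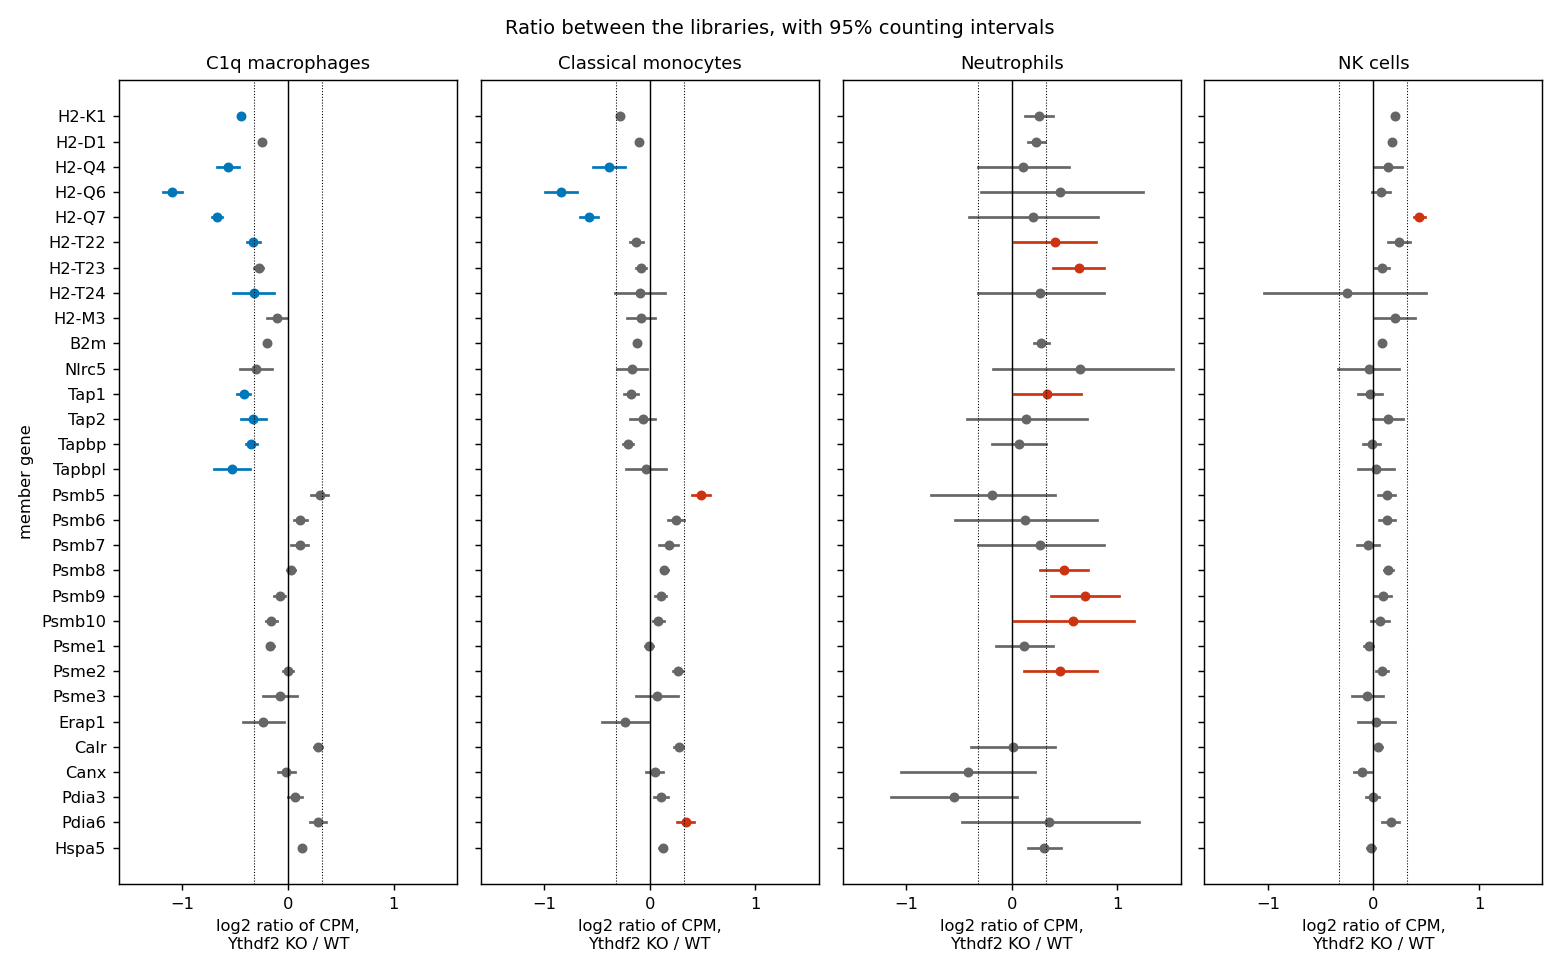
Log2 ratio of CPM (Ythdf2 KO over WT) for each member in C1q macrophages, classical monocytes, neutrophils and NK cells, 1 panel each, with exact 95% intervals that cover counting error only. Blue points were called lower, red points higher and grey points neither, the dotted lines mark the threshold, and unmeasured members have no point; 10 blue points stand in the macrophage panel, 7 red points in the neutrophil panel and 1 red point, H2-Q7, in the NK cell panel.

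Neutrophils had calls in the other direction from macrophages, though mostly on other members. Only H2-T22 and Tap1 were called in both types. Of 26 measured members, 7 were called higher and 0 lower in Ythdf2 KO, where 9.65% of 3545 measured genes were called higher and 8.35% lower. The median log2 ratio was 0.27 over the members and -0.01 over all measured genes. All 3 immunoproteasome subunits were among the 7.

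Psmb9 had 116 UMIs in WT and 279 in Ythdf2 KO, which is 109 and 176 CPM and a ratio of 1.62 (1.30 to 2.02). Psmb8 stood at 220 and 309 CPM, a ratio of 1.41 (1.20 to 1.65), and Psmb10 at 37.6 and 56.2 CPM, a ratio of 1.49 (1.02 to 2.23). Among the heavy chains, H2-T23 stood at 191 and 296 CPM, a ratio of 1.55 (1.31 to 1.84), and H2-T22 at 80.8 and 107 CPM, a ratio of 1.33 (1.02 to 1.74). Psme2 (1.37, 1.08 to 1.75) and Tap1 (1.26, 1.01 to 1.57) completed the calls.

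The classical chains and B2m lay above 1 without reaching the threshold: H2-K1 had a ratio of 1.20 (1.09 to 1.31), H2-D1 1.18 (1.11 to 1.24) and B2m 1.22 (1.16 to 1.28). H2-M3, Erap1, Psme3 and Tapbpl had too few UMIs in neutrophils to be measured. The neutrophil cells held fewer UMIs than other types, with medians of 2086 and 1841 per cell. Markers of classical monocytes were summed at 2224 and 1980 CPM in them and those of NK cells at 159 and 82.7 CPM, and the part of either in the ratios was not tested. Leaving out cells under 1000 UMIs and thinning the rest left 4 members higher (H2-T23, Psmb9, Psme2 and Hspa5).

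In NK cells, which kill targets that lack class I, 1 of 30 members was higher (background 3.3%) and 0 were lower (background 7.87%). H2-Q7 stood at 355 and 481 CPM, a ratio of 1.35 (1.30 to 1.40), where macrophages and monocytes had a ratio below 1. H2-K1 had a ratio of 1.15 (1.13 to 1.17). The median-ratio scaling moved the share of higher calls in these cells from 29.5% to 46.6%.

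CD8 T cells, with only 82 and 104 cells, had 5 of 29 measured members higher (background 8.54%) and 8 lower (background 9.39%). The higher ones were Pdia6 (78.9 and 141 CPM, ratio 1.79, 1.28 to 2.54), H2-M3 (1.70, 1.03 to 2.91), Calr (431 and 654 CPM, ratio 1.52, 1.31 to 1.76), Psmb5 (1.51, 1.17 to 1.96) and Pdia3 (1.32, 1.06 to 1.65). The lower ones were led by Nlrc5, with 41 UMIs in WT and 23 in Ythdf2 KO and a ratio of 0.344 (0.197 to 0.588). H2-Q4 (0.632), Tap1 (0.664), H2-T22 (0.674), H2-Q6 (0.706), Tapbp (0.728), H2-T23 (0.760) and Psmb10 (0.775) followed. Under stricter gates 2 members were higher and 5 lower. At 1000 UMIs per cell, which leaves far fewer UMIs to count, 0 were called in either direction.

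The remaining 4 types had few calls. Mature dendritic cells, the highest in class I, had 1 of 29 measured members lower (background 6.24%), Nlrc5 with a ratio of 0.670 (0.481 to 0.920), and 0 higher (background 4.73%). The Nlrc5 call was lost under stricter gates. Plasmacytoid dendritic cells had 1 of 26 higher (background 4.64%), Psmb9 with a ratio of 1.32 (1.04 to 1.70), and 0 lower (background 5.83%).

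Gamma-delta T cells had 1 of 26 higher (background 4.16%), H2-M3 with a ratio of 1.81 (1.01 to 3.24) that stricter gates removed, and 0 lower (background 6.26%). B cells had 0 of 24 higher (background 4.15%) and 2 lower (background 6.68%), H2-K1 at 1474 and 1095 CPM with a ratio of 0.742 (0.656 to 0.842) and H2-Q7 with a ratio of 0.754 (0.580 to 0.984). Across the 10 types, H2-D1, B2m, Psmb7, Psme1, Psme3, Erap1, Canx and Hspa5 were called in none, though Psme3 and Erap1 were measured in only 6. H2-Q6 was called lower in 4, H2-Q4 in 3 and H2-Q7 in 3. The share of all genes called in as many types is not given here, so these counts have no background.

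Genes around the pathway were taken from 7 lists of further heavy chain, proteasome, regulator, peptidase, chaperone, interferon gamma response and class I receptor genes. The backgrounds for their counts are those given above for each cell type, in C1q macrophages 10.9% lower and 4.49% higher. In C1q macrophages, 0 of 30 further proteasome genes were called, with a median log2 ratio of 0.11. Of 16 regulators, 3 were lower and 1 higher: Irf1, an interferon-induced activator of class I genes, stood at 253 and 197 CPM (ratio 0.778) and Stat2 at 227 and 169 CPM (0.742), with Rfxank at 0.756 and Ezh2 at 1.27. Of 16 interferon gamma response genes, 2 were lower (Iigp1 0.790 and Jak2 0.798) and 0 higher.

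Of 3 further heavy chain genes measured in macrophages, H2-Q10 (0.718) and Mr1 (0.665), whose product presents vitamin metabolites, were lower. Of 7 cytosolic and other peptidases, Lap3 was higher (1.31) and Lnpep lower (0.787). Of 10 class I receptor genes, Klra3 (0.637) and Klrc1 (0.576), both known from NK cells, were lower. Held-out NK cell markers summed to 170 CPM in the WT and 116 CPM in the Ythdf2 KO macrophages, and their part in the result was not tested.

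The chaperone list of the unfolded protein response had 3 of 19 higher and 1 lower in macrophages, among them Manf, a secreted stress protein, at 185 and 251 CPM (ratio 1.36), Sdf2l1 (1.43) and Pdia4 (1.39), with Dnajb9 at 0.687. In classical monocytes the same list had 4 of 19 higher and 0 lower, Manf 1.34, Sdf2l1 1.73, Herpud1 1.31 and Pdia4 1.38. Further proteasome genes had a median log2 ratio of 0.23 in monocytes, with Psmc2 (1.31) the 1 call of 30. Of the other lists in monocytes, regulators had Stat2 lower (0.796), peptidases had Lap3 higher (1.51) with Lnpep (0.730) and Npepps (0.794) lower, and interferon gamma response genes had Cxcl9 higher (135 and 190 CPM, ratio 1.41) and Jak2 lower (0.786). Klrd1 (0.620), Klra7 (0.615) and Klra3 (0.573) of the receptor list were lower, where NK cell markers summed to 122 and 61.4 CPM, and their part was not tested.

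In neutrophils, 8 of 13 measured interferon gamma response genes were higher (background 9.65%) and 0 lower (background 8.35%), with a median log2 ratio of 0.50. The genes named here for neutrophils were chosen after their values were seen. Cxcl10, a T cell attractant, stood at 891 and 1643 CPM (ratio 1.84), and Gbp2, an interferon-induced GTPase, at 470 and 779 CPM (1.66). In CD8 T cells the same list had 7 of 11 lower (background 9.39%) and 0 higher (background 8.54%).

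Cells holding a UMI of Cxcl9, a chemokine induced by interferon gamma, were set against the cells without one inside each library, after thinning every cell to 1000 UMIs. Some of the class I genes were higher in the Cxcl9-positive cells of both genotypes. In macrophages, 8 of 30 members were higher and 0 lower in WT (background 3.45% and 4%, 373 positive and 3461 negative cells), and 10 of 28 were higher and 0 lower in Ythdf2 KO (background 4.19% and 4.21%, 238 and 2113 cells). In monocytes, 9 of 30 were higher and 0 lower in WT (background 4.01% and 3.12%, 210 and 3394 cells), and 8 of 30 were higher and 1 lower in Ythdf2 KO (background 4.86% and 3.59%, 214 and 2482 cells).

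Psme2 was called in all 4 contrasts, with ratios of 1.30 and 1.37 in WT and Ythdf2 KO macrophages and 1.33 and 1.30 in monocytes. Tap1 in macrophages went from 261 to 401 CPM in WT (ratio 1.53, 1.28 to 1.83) and from 190 to 265 CPM in Ythdf2 KO (ratio 1.40, 1.05 to 1.83). B2m moved little, with ratios between 1.04 and 1.20. H2-K1 in macrophages had ratios of 1.11 and 1.07, and in monocytes it had 1.40 in WT (called) and 1.21 in Ythdf2 KO. These are cells of 1 library each, so the contrast has no replicate.

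The 10 members lower in Ythdf2 KO macrophages were picked by their ratio in these same cells, most of which were Cxcl9-negative. Ratios below 1 in the negative cells therefore follow largely from that choice. All 10 had ratios below 1 among Cxcl9-negative cells and 8 among Cxcl9-positive cells. The exceptions in the positive cells were Tap2, with 0.654 (0.524 to 0.812) in negative and 1.34 (0.786 to 2.26) in positive cells, and Tapbpl, with 0.614 (0.441 to 0.845) and, from 18 and 12 UMIs, 1.04 (0.459 to 2.29). H2-K1 had a ratio of 0.727 (0.704 to 0.751) in Cxcl9-negative and 0.698 (0.635 to 0.767) in Cxcl9-positive macrophages. H2-Q7 had 0.659 (0.607 to 0.714) and 0.502 (0.392 to 0.638). Tap1 had 0.727 (0.644 to 0.818) and 0.663 (0.486 to 0.895). Whether the ratios differ between negative and positive cells was not tested.

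**Figure D4:**
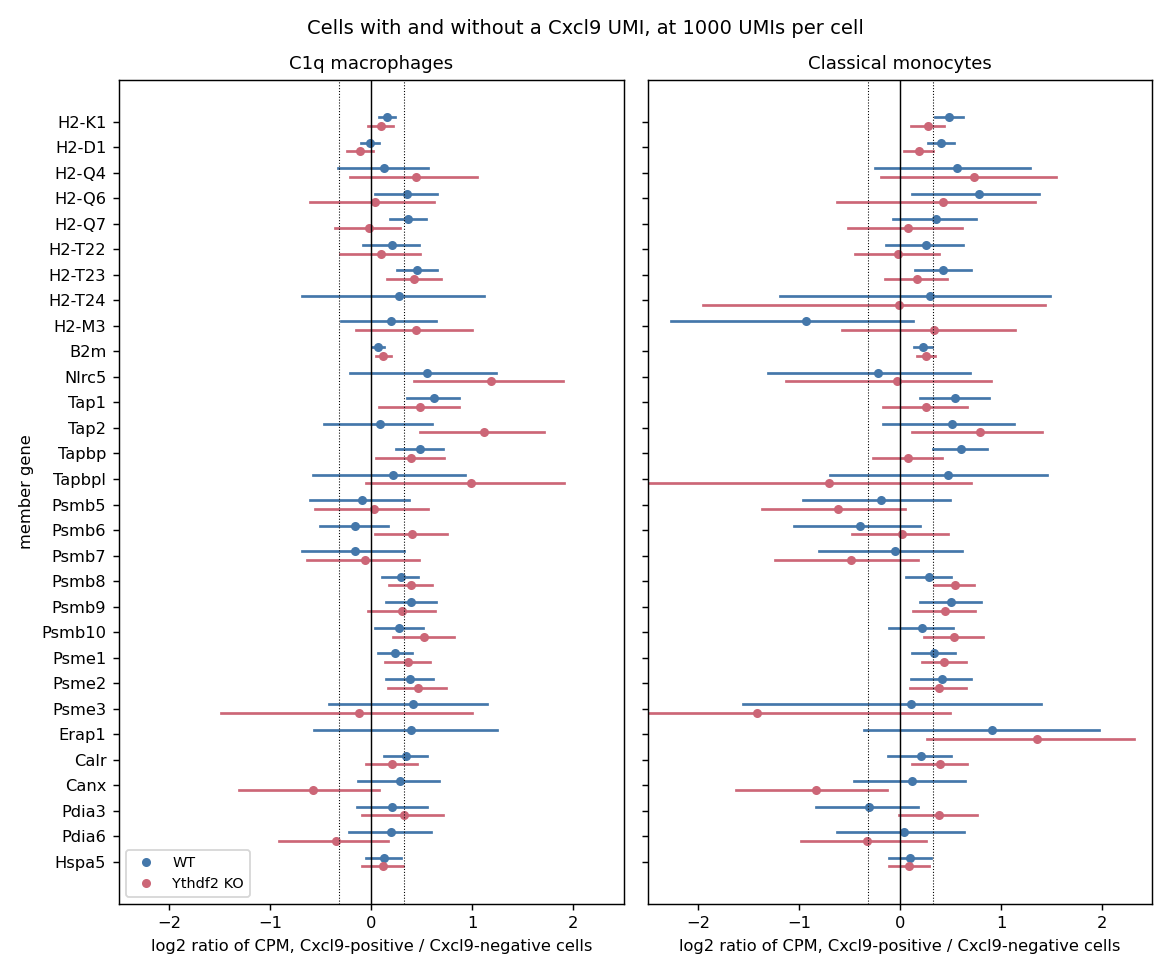
Log2 ratio of CPM (Cxcl9-positive over Cxcl9-negative cells) for the members in C1q macrophages and classical monocytes, WT in blue and Ythdf2 KO in red, at 1000 UMIs per cell. Lines are exact 95% intervals that cover counting error only, cut off at the edge of the panel where wider, and dotted lines mark the threshold; Psme2 lies right of 0 in all 4 contrasts and B2m close to 0.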

How the data were processed

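Single-cell RNA libraries of CD45+ tumour cells were analysed, 1 WT and 1 Ythdf2 KO. The deposited counts are UMI counts per gene and barcode, made by the authors with Cell Ranger 6.1.1 per the file headers. Version 5.0.1 of that program, Seurat 4.0.4 and the build mm10 are listed in the submitters' processing notes. A 5′ kit is named per the labels' protocols. The libraries held 168912853 and 134066610 UMIs over 20886 and 16312 barcodes (medians 5554 and 5617 per barcode). Barcodes under 200 genes, under 500 UMIs or over 10% mitochondrial UMIs were dropped, and the top 8% of Scrublet scores per library were removed as likely doublets. Cell types were gated on marker UMIs, with the marker sets of most other lineages held to at most 1 UMI each. Classical monocyte, cDC1 and Cd209a markers were not held in any gate. C1q markers were not held in patrolling monocytes, nor NK cell markers in CD8 T cells. Counts were summed per type and library and divided by all UMIs of the type (CPM). Levels have exact Poisson intervals, ratios exact conditional binomial intervals and shares exact Clopper-Pearson intervals, all at 95%. The interval code was tested on simulated data.

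All members are named. Other pathway genes are named where called in C1q macrophages or classical monocytes, at most 4 per list and those with the most UMIs first. The members, gates and lists were chosen with earlier results of these data known. Alternatives covered gates, doublets, scaling, weighting, thinning, UMI minimum and fold. The tools were scanpy 1.11.5, scipy 1.17.1 and pandas 2.3.3 under Python 3.11.15, with matplotlib 3.10.9 for plots. Cells in no gate (7834 and 6171) or in more than 1 (38 and 12) were left out.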

Additional observations from a re-analysis of the deposited data

Results flagged for a closer look

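For 5 members the ratio of Ythdf2 KO to WT was called in opposite directions in different cell types, and the difference between cell types was not tested. The share of all genes with such opposite calls is not given here. H2-Q7 had a ratio of 0.627 in C1q macrophages, 0.672 in classical monocytes and 0.754 in B cells but 1.35 in NK cells. H2-T22 had a ratio of 0.797 in C1q macrophages and 0.674 in CD8 T cells but 1.33 in neutrophils. Tap1 had a ratio of 0.747 in C1q macrophages and 0.664 in CD8 T cells but 1.26 in neutrophils. H2-T23 had a ratio of 1.55 in neutrophils and 0.760 in CD8 T cells, and Psmb10 had 1.49 and 0.775.

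Several of these calls were lost under an alternative. The H2-T22 call in macrophages was lost with median-ratio scaling and when thinned to 1000 UMIs. The neutrophil calls of H2-T22, Tap1 and Psmb10 were lost when thinned, as were all of those in CD8 T cells. Thinning discards UMIs, so these losses can come from fewer counts alone. The H2-Q7 calls in macrophages, monocytes and NK cells held under both of these settings.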

How the results depend on the processing

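Of the 43 called member ratios in the 10 cell types, 0 reversed in 326 values under the alternatives, 295 of those values stayed past the fold threshold, and 30 ratios stayed past it under every alternative run for them. In C1q macrophages the 10 lower members became 6 without mitochondrial and ribosomal protein genes, 6 with median-ratio scaling and 2 at a fold of 1.5, and the 0 higher became 1, 3 and, when thinned to 1000 UMIs, 1. Over all genes called in that type, 29.3% were higher under the main settings. That share was 36.3% without those genes, 48.8% with median-ratio scaling, 36.5% at a fold of 1.5 and 27.0% when thinned. In classical monocytes the 3 lower became 1 at a fold of 1.5, and the 2 higher became 1 under stricter gates, 1 with cells weighted equally, 4 when thinned and 0 at a fold of 1.5. In neutrophils the 7 higher became 12 under stricter gates, 4 when thinned, 2 at a fold of 1.5 and 2 at a minimum of 500 UMIs, and the 0 lower became 1 with no doublets removed and 1 with cells weighted equally. The higher share of all called genes moved there too. It was 53.6% under the main settings, 67.3% under stricter gates, 54.3% when thinned, 51.7% at a fold of 1.5 and 69.2% at 500 UMIs. In NK cells the 1 higher became 2 when thinned and 0 at a fold of 1.5. In Cxcl9-positive Ythdf2 KO macrophages the 10 higher became 6 when thinned to 2000 UMIs. For the member counts under the alternatives, here and above, the share of all measured genes called is not given. These counts show how the calls move and are not set against a background. Fewer genes pass a higher fold or UMI minimum by construction. Thinning discards UMIs and widens the intervals, so a call can be lost with no change in its ratio. The cause of the other moves was not tested. No paired analysis was possible because each group has 1 library. Depth limits the rare types: with 82 WT CD8 T cells, members of few UMIs have wide intervals.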

Other observations

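Gates with fewer than 50 cells in a library were given no ratio. The cDC1 gate, the dendritic cells that cross-present antigen, held 19 WT and 16 Ythdf2 KO cells, with Psme1 at 1425 and 1216 CPM, Psmb8 at 1301 and 1175 CPM and Psmb9 at 771 and 776 CPM. Psmb9 there lay above the 631 and 650 CPM of mature dendritic cells, while Psme1 and Psmb8 lay below their levels in those cells. Regulatory T cells (32 and 24 cells) had H2-K1 at 4218 and 3371 CPM and B2m at 5083 and 5247 CPM. Mature dendritic cells had H2-K1 at 3906 and 3812 CPM. Cells gated on Rhox5 (7 and 39 cells) had B2m at 1555 and 2082 CPM and H2-K1 at 1081 and 1418 CPM. In the 39 Ythdf2 KO cells of that gate H2-T23 and H2-Q6 had 0 UMIs, which allows up to 6.58 CPM each, and H2-Q7 stood at 8.77 CPM.

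The 5 genes outside the pathway whose levels were most like the mean of H2-K1, H2-D1 and B2m, among 3824 genes ranked over 20 points (10 cell types in 2 libraries), were Clptm1 (Pearson correlation 0.92), Plxnd1 (0.90), Itm2c (0.90), Slc3a2 (0.89) and Cfl1 (0.88). The same measure was 0.85 for Psme2, 0.83 for Psmb8, 0.73 for Tap1, 0.12 for Calr and -0.14 for Hspa5. The points share libraries and depth, so these are descriptions.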
